A study of Mus musculus with 4 samples.

Results

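Migratory and resident conventional dendritic cells (cDCs) were compared with each other, within the cDC1 and the cDC2 lineage and within each library, in lymph nodes draining a tumor. The members are the cells that the authors' table of antigen-presenting cells (APCs) names mcDC1, rcDC1, mcDC2 or rcDC2. The table does not spell out these names; m and r are read here as migratory and resident, and the reading is checked against markers below. They number 1068 of 1731 annotated APCs and of 5825 annotated cells. In the control library they are 166 mcDC1, 135 rcDC1, 57 mcDC2 and 87 rcDC2, and in the RGX-104 library 214, 138, 104 and 167 in the same order.

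Both libraries came from tumor-draining lymph nodes of wildtype mice, resected on day 8 after injection of tumor cells. Mice of the RGX-104 library were fed RGX-104, which activates the liver X receptor (LXR), in their chow from day 3, and those of the control library were fed control chow. Nodes were digested with collagenase and DNase, and APCs and T cells were sorted by flow cytometry and read with 10x 5′ chemistry. The tumor line, the number of mice, any pooling and the gates of the sort are not given in the sources used here. With 1 library per chow there is no replicate, so no p-value is given. The cell types are also clusters of these same cells, so a gene that differs between them may have helped to define them, and the differences are a description of the 2 states.

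Conventional dendritic cells take up antigen and present it to T cells. cDC1, which depend on the transcription factors IRF8 and BATF3, are known for cross-presentation to CD8 T cells, and cDC2, which depend on IRF4, for presentation on MHC class II to CD4 T cells. Resident cDCs enter the lymph node from the blood as precursors, whereas migratory cDCs arrive from peripheral tissue through the lymph, guided by the chemokine receptor CCR7, after a maturation step that reshapes the cytoskeleton and the antigen-presentation machinery.

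UMIs (unique molecular identifiers, counting captured RNA molecules) were summed over the cells of a type in a library and scaled to a common total, giving the normalised count called CPM. Sums ranged from 445224 UMIs in control mcDC2 to 2565280 in RGX-104 rcDC1. Median UMIs per cell were 7686 and 8989 in mcDC1 and 16248 and 19292 in rcDC1 (control, then RGX-104, the order used throughout), and 7346 and 8404 in mcDC2 and 9007 and 9235 in rcDC2. Ribosomal protein genes took 13.7% and 14.9% of the UMIs of mcDC1 against 25.0% and 26.2% in rcDC1, and 21.8% to 25.6% in mcDC2 and rcDC2. The share of UMIs left for other genes therefore differed more between the cDC1 states than between the cDC2 states. Intervals after a value are exact 95% intervals of counting error only. No cDC barcode was shared by the libraries.

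The markers go with the migratory and resident reading in both lineages. Ccr7 and Fscn1, which encodes the actin-bundling protein fascin, were high in mcDC1 and mcDC2 and low in rcDC1 and rcDC2. Ccr7 (ENSMUSG00000037944, mm10 chromosome 11, 99144199 to 99155077) stood at 3563 and 3187 CPM in mcDC1 against 69.6 and 96.3 CPM in rcDC1, a difference of 51.2-fold (43.6 to 60.5) and 33.1-fold (29.1 to 37.7). In cDC2 it stood at 3207 and 3619 CPM in mcDC2 against 375 and 439 CPM in rcDC2, a difference of 8.55-fold (7.53 to 9.75) and 8.25-fold (7.61 to 8.95). The 4 migratory values lie close together, and the smaller fold of cDC2 goes with more Ccr7 in rcDC2 than in rcDC1. Fscn1 (ENSMUSG00000029581, mm10 chromosome 5, 142960355 to 142973189) stood at 5725 and 4488 CPM in mcDC1 against 5.46 and 2.34 CPM in rcDC1, and at 2392 and 2849 CPM in mcDC2 against 103 and 102 CPM in rcDC2. Its differences were 1049-fold (600.1 to 2031) and 1919-fold (881 to 5230.3) in cDC1 and 23.1-fold (18.4 to 29.5) and 28.0-fold (23.9 to 32.9) in cDC2. After thinning each cell to 2000 UMIs, both genes were seen together in 94.5% and 92.0% of mcDC1, 0% and 0.746% of rcDC1, 87.5% and 92.2% of mcDC2, and 4.71% and 9.76% of rcDC2. In annotated T cells the thinned share was 1.12% and 1.32%, below rcDC2 but not below rcDC1. T cells express Ccr7, seen in 69.2% and 64.0% of them after thinning against 6.87% and 10.4% of rcDC1. Their share of both genes is therefore limited by Fscn1, seen in 1.51% and 1.93%, and is no background for both genes in resident cDCs. Without thinning the shares were 20.7% and 21.0% in rcDC2 and 3.14% and 2.91% in T cells, whose median depth was 4944 and 5048 UMIs. Thinning left out 1 to 4 cells of each cDC type and library and 41 and 27 T cells.

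Surface markers of the lineages followed the names in resident cells, and those given first here were far lower in migratory ones. Xcr1, the chemokine receptor that marks cDC1, stood at 4.17 and 4.39 CPM in mcDC1 against 297 and 354 CPM in rcDC1, and was seen in 114 of 135 and 127 of 138 rcDC1 but in 1 of 166 and 4 of 214 mcDC1. Clec9a, a receptor for dead cells, stood at 16 and 15.6 CPM in mcDC1 against 335 and 352 CPM in rcDC1, and the RNA sensor Tlr3 at 0.696 and 0 CPM in mcDC1 against 87.3 and 86.5 CPM in rcDC1. In cDC2 the lectin Cd209a stood at 51.7 and 23.6 CPM in mcDC2 against 379 and 333 CPM in rcDC2, and its UMIs in mcDC2 came from 1 cell in each library. The lectin Mgl2 stood at 0 and 1.03 CPM in mcDC2 against 47.7 and 57.9 CPM in rcDC2. These markers therefore gave little check of the lineage of migratory cells, in which the cDC2 marker Sirpa stood at 20.2 and 26.8 CPM in mcDC1 and 115 and 94.5 CPM in mcDC2. A second clustering in the same table put 112 of 380 mcDC1 into a cluster with 136 of 161 mcDC2 and 278 of 280 cells named mLC, and 265 mcDC1 into a cluster with 12 mcDC2 and 2 mLC, so the line between migratory cDC1 and cDC2 moves with the clustering.

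Of the genes that mark other cell types, those of monocytes and macrophages moved most with the resident state. The summed level of 12 such genes was 640.0 and 640.5 CPM in rcDC1 and 1497 and 2334 CPM in rcDC2, against 114 and 70.7 CPM in mcDC1 and 166 and 114 CPM in mcDC2. Lyz2 was the largest part of it, at 299 and 348 CPM in rcDC1 and 941 and 1698 CPM in rcDC2. Of the macrophage genes, Fcgr1 reached at most 5.48 CPM and was at 0 in mcDC1 and mcDC2 of both libraries, and C1qa, C1qb and C1qc reached at most 5.48 CPM in any of the 4 types. Markers of T cells summed to between 33.9 and 156 CPM, with rcDC2 highest at 147 and 156 CPM, and those of B and plasma cells to between 41.1 and 200.1 CPM. Sums were 132 to 373 CPM for Langerhans cell genes and 236 to 529 CPM for plasmacytoid dendritic cell genes, of which 10 each were listed, with 2 to 4 and 1 to 4 of them at 0. Genes of NK cells reached at most 7.41 CPM and of stroma and endothelium at most 20.1 CPM. Neutrophil genes stayed at or below 9.14 CPM except in RGX-104 mcDC1, at 765 CPM, where 1567 of 1570 UMIs came from 1 cell. Whether RNA of other cells contributes to genes higher in resident cells was not tested.

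A gene was called where migratory and resident cells differed at least 2-fold, with an interval that excludes 1, in both libraries. This takes genes with at least 20 UMIs per lineage in each library. In cDC1, 1341 of 8615 measured genes (15.6%) were higher in migratory cells and 1173 (13.6%) lower, and in cDC2 437 of 5865 (7.45%) were higher and 681 (11.6%) lower. The cDC1 sums are larger, and more genes can be called in them. With cDC1 sums thinned at random to the cDC2 totals, 894 of 5897 genes were higher and 748 lower in mcDC1. The measured genes thus fell from 8615 to 5897 as well, and the shares called changed far less than the counts. The share called higher stayed above that of cDC2. Of 5766 genes measured in both lineages, 363 (6.3%) were higher in migratory cells of both lineages and 359 (6.23%) lower in both. Calls in opposite directions were made for 19 genes (0.33%). A further 178 (3.09%) were called in cDC1 with cDC2 close to equal, 41 (0.711%) in cDC2 with cDC1 close to equal, and 1006 (17.4%) were called in 1 lineage with the other falling between these cases.

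The share of calls that were higher moved with the scaling of the totals. With TMM factors (which set the bulk of genes equal) the calls were 1262 higher and 1283 lower in cDC1 and 535 and 512 in cDC2, and with ribosomal protein genes left out of the totals 1092 and 1532, and 416 and 750. The median log2 ratio over all measured genes was 0.08 and 0.09 in cDC1 and -0.18 and -0.25 in cDC2 as reported, -0.01 and 0.03 and -0.01 and -0.004 with TMM, and -0.15 and -0.14 and -0.24 and -0.31 without ribosomal protein genes. List medians given further on are to be read against those of all genes as reported. Under TMM 361 of the 363 shared higher and 304 of the 359 shared lower genes kept their call.

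**Figure D1:**
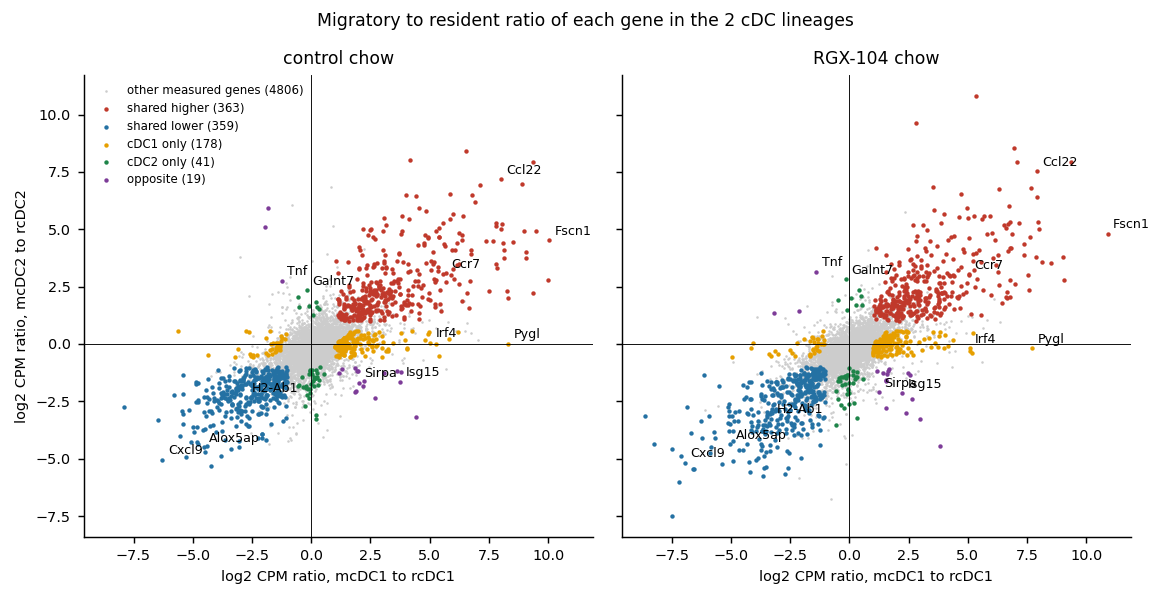
Each point is a gene measured in both lineages, with the log2 ratio of mcDC1 to rcDC1 on the x axis and of mcDC2 to rcDC2 on the y axis, with the control library on the left and the RGX-104 library on the right; colours mark shared, one-lineage and opposite calls. Shared genes fill the upper right and lower left corners, one-lineage genes lie along the axes, and the cDC1 and cDC2 ratios correlate with r = 0.700 in control and 0.753 in RGX-104 across 5766 genes.

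Across these 5766 genes the cDC1 and cDC2 ratios, which share no cells, correlated with Pearson's r of 0.700 (control library) and 0.753 (RGX-104 library). The ratios of the 2 libraries correlated at 0.946 in cDC1 and 0.844 in cDC2. Genes are not independent replicates, and the points of 1 library share its preparation and depth, so these are descriptions. The shared higher genes had a median log2 ratio of 3.03 and 2.90 in cDC1, and of 2.20 and 2.15 in cDC2. The shared lower genes had medians of -2.36 and -2.35 in cDC1 and -1.98 and -2.33 in cDC2.

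The shared higher genes included genes of cell movement and recruitment. Of 21 measured genes of migration and the cytoskeleton, 9 were shared higher (Ccr7, Fscn1, Marcks, Marcksl1, Icam1, Cxcl16, Arhgap31, Tubb2b and Anxa3) and 2 shared lower (Was and Coro1a), beside 6.3% and 6.23% of all genes. The list medians were 1.14 and 1.10 in cDC1 and 1.25 and 1.69 in cDC2 against the all-gene medians above. Chemokines went both ways. Ccl22, a ligand of CCR4 that draws regulatory T cells, stood at 465 and 756 CPM in mcDC1 against 1.82 and 3.12 CPM in rcDC1 and at 1548 and 2028 CPM in mcDC2 against 10.6 and 11.0 CPM in rcDC2, differences of 256-fold (99.4 to 941) and 242-fold (123 to 562) and of 146-fold (73.7 to 339.6) and 185-fold (117 to 313). Ccl17, the other CCR4 ligand, stood at 21.6 and 48.3 CPM in mcDC1 against 0 and 0.390 CPM in rcDC1 and at 362 and 672 CPM in mcDC2 against 0 and 1.83 CPM in rcDC2. It was therefore mainly a transcript of migratory cDC2, while Ccl22 was found in both lineages. Ccl5, a chemokine that draws T cells, reached 13619 and 15254 CPM in mcDC1 against 36.8 and 92.0 CPM in rcDC1 and 11024 and 11811 CPM in mcDC2 against 513 and 584 CPM in rcDC2, with resident cells of both lineages far lower. The neutrophil attractant Cxcl1 was shared higher too, at 26.4 and 13.7 CPM in mcDC1 against 0.455 and 0 CPM in rcDC1 and at 373 and 209.5 CPM in mcDC2 against 0 and 0 CPM in rcDC2.

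The interferon-induced CXCR3 ligands and the chemokine Ccl4 went the other way. Cxcl9, which draws effector T cells and natural killer cells, stood at 6.96 and 6.83 CPM in mcDC1 against 541 and 835 CPM in rcDC1, lower in migratory cells by 77.8-fold (42.1 to 163) and 122-fold (72.8 to 224). In cDC2 it stood at 2.25 and 2.05 CPM in mcDC2 against 74.2 and 74.4 CPM in rcDC2, lower by 33.0-fold (5.69 to 1328) and 36.2-fold (9.81 to 302). Its level was thus highest in resident cDC1. Cxcl10 and Ccl4 were also shared lower, the latter by 240.0-fold (66.2 to 1986) and 177-fold (60.2 to 859) in cDC1 and 6.68-fold (2.10 to 34.0) and 178-fold (49.1 to 1476) in cDC2. In all, 4 of 9 measured chemokines were shared higher and 3 shared lower, beside 6.3% and 6.23% of all genes.

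**Figure D2:**
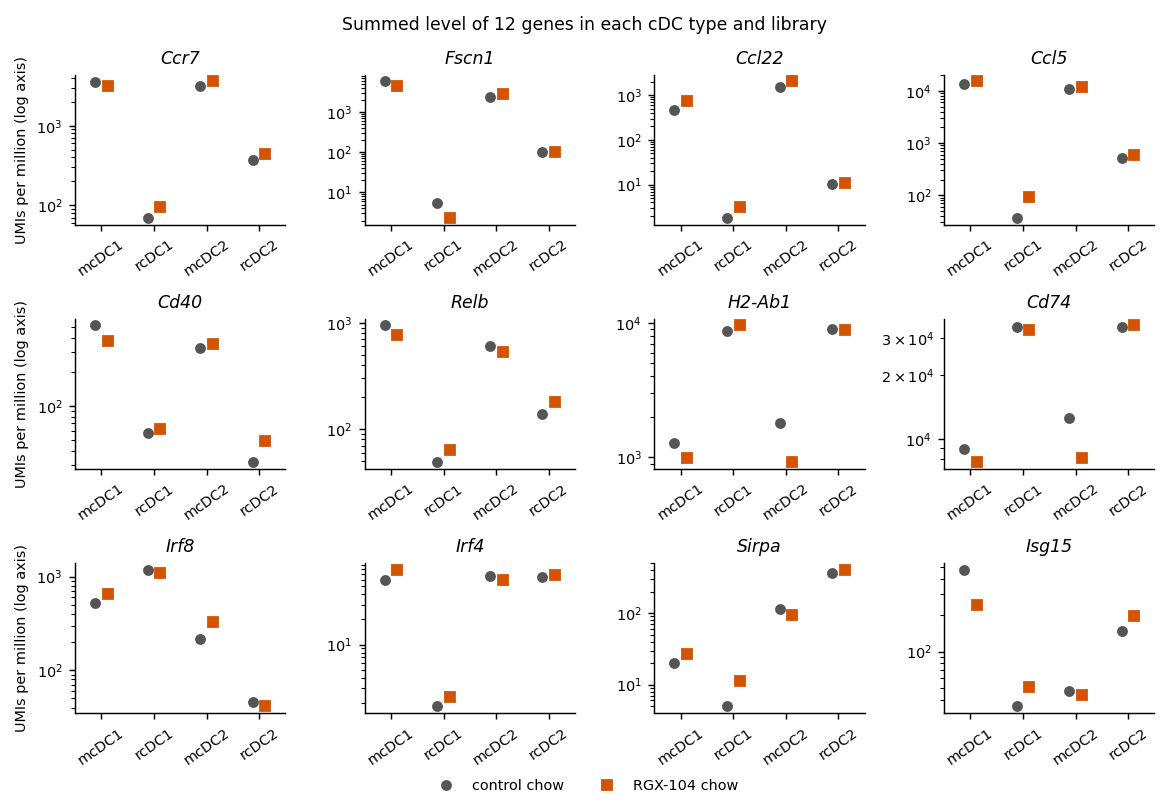
Level in CPM (log axis) of 12 genes in mcDC1, rcDC1, mcDC2 and rcDC2 of the control and the RGX-104 library, 1 point per type and library. Ccr7, Fscn1, Ccl22, Ccl5, Cd40 and Relb are higher in both migratory types, H2-Ab1 and Cd74 lower, and Irf8, Irf4, Sirpa and Isg15 differ between the lineages.

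Genes of the mature regulatory dendritic cell state were higher in migratory cells of both lineages in 16 of 19 measured cases, beside 6.3% of all genes. The list medians were 5.16 and 5.07 in cDC1 and 2.83 and 3.12 in cDC2. The list is made of genes known to define matured CCR7-positive cells, so its direction is no independent evidence. Cd274, which encodes the inhibitory ligand PD-L1, stood at 322 and 313 CPM in mcDC1 against 3.18 and 16 CPM in rcDC1 and at 155 and 289.6 CPM in mcDC2 against 53.0 and 68.3 CPM in rcDC2, a difference of 101-fold and 19.6-fold in cDC1 but 2.92-fold and 4.24-fold in cDC2. Il4i1, an amino acid oxidase that restrains T cells, stood at 885 and 666 CPM in mcDC1 against 1.36 and 3.51 CPM in rcDC1 and at 734 and 816 CPM in mcDC2 against 159 and 158 CPM in rcDC2. For both genes rcDC2 held more than rcDC1, and the fold was smaller in cDC2. Socs2, a suppressor of cytokine signalling, stood at 911 and 751 CPM in mcDC1 against 1.82 and 3.12 CPM in rcDC1 and at 447 and 467 CPM in mcDC2 against 14.6 and 5.48 CPM in rcDC2. Of the other 3, Tbc1d4 was higher in cDC1 only, Il4ra was called in 1 lineage and Stat6 in neither. Among 11 ligands and receptors that regulate T cells, 4 were shared higher (Cd274, Pvr, Cd200 and Adora2a) and 4 shared lower (Lgals9, Havcr2, Btla and Entpd1), beside 6.3% and 6.23% of all genes.

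Costimulatory genes were called in both directions. Cd40, which receives help from CD4 T cells, stood at 515 and 376 CPM in mcDC1 against 57.8 and 62.8 CPM in rcDC1 and at 326 and 355 CPM in mcDC2 against 31.8 and 48.8 CPM in rcDC2, differences of 8.91-fold and 6.0-fold and 10.2-fold and 7.29-fold. The CD28 ligands did not share this pattern. Cd80 was higher in mcDC1, by 3.55-fold (2.66 to 4.77) and 2.52-fold (1.93 to 3.30), but in cDC2 stood at 31.4 and 59.6 CPM in mcDC2 against 74.2 and 90.8 CPM in rcDC2. Cd86 stood at 148 and 115 CPM in mcDC1 against 143 and 179 CPM in rcDC1 and at 38.2 and 41.1 CPM in mcDC2 against 84.8 and 162 CPM in rcDC2, lower in mcDC2 by 2.22-fold (1.28 to 4.04) and 3.93-fold (2.81 to 5.63). In this list of 11 measured genes 3 were shared higher (Cd40, Icam1 and Tnfrsf9) and 1, Cd48, shared lower, beside 6.3% and 6.23% of all genes, and Cd48 lost that call under TMM. Tnfrsf9 (4-1BB) stood at 149.5 and 127 CPM in mcDC1 against 0.910 and 0 CPM in rcDC1 and at 89.8 and 120.2 CPM in mcDC2 against 3.97 and 6.70 CPM in rcDC2. It was close to absent from rcDC1. Il15, a cytokine that sustains CD8 T cells and natural killer cells, stood at 248 and 261 CPM in mcDC1 against 19.1 and 23.8 CPM in rcDC1 and at 144 and 153 CPM in mcDC2 against 9.27 and 10.4 CPM in rcDC2, with folds between 11.0 and 15.5 over both lineages and libraries. Its receptor chain Il15ra was shared higher as well, and Il1b, at 118 and 130.2 CPM in mcDC1 against 353 and 551 CPM in rcDC1 and at 588 and 527 CPM in mcDC2 against 1905 and 2207 CPM in rcDC2, was shared lower with Tgfb1.

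Genes of the NF-κB pathway were higher in migratory cells wherever they were called, apart from 1 in cDC2. In cDC1 17 of 21 measured members were higher, beside 16.6% of all genes measured in both lineages (12.2% were lower), and none was lower. In cDC2 7 were higher and 1 lower, beside 7.44% and 10.7% of all genes, and the 7 were shared: Relb, Nfkbia, Nfkbib, Birc2, Birc3, Cflar and Tank. Relb, the subunit that acts in the noncanonical pathway, stood at 942 and 759 CPM in mcDC1 against 49.1 and 63.9 CPM in rcDC1 and at 604 and 529 CPM in mcDC2 against 139 and 179.8 CPM in rcDC2, differences of 19.2-fold and 11.9-fold and 4.34-fold and 2.94-fold. Medians of the list were 1.90 and 1.96 in cDC1 and 0.88 and 0.83 in cDC2. The κB motif, the DNA element bound by these factors, was looked for on both strands of RefSeq promoters (250 bases before to 50 after the start, GRCm38.p6). It was found in 51 of 276 shared higher genes with a promoter sequence (18.5%), 37 of 283 shared lower genes (13.1%), 614 of 4663 measured genes (13.2%) and 2581 of 27025 genes in all (9.55%). A match is a description of these letters, not a bound site. Promoters of 3 shared higher genes with large folds are shown with the match in capitals, at chr14:77903989-77904288 for Epsti1, an interferon-induced gene, chr5:90890995-90891294 for Cxcl1 and chr4:150927749-150928048 for Tnfrsf9, all on the plus strand; in Cxcl1 and Tnfrsf9 a pair of overlapping matches makes up the capitals.
Epsti1: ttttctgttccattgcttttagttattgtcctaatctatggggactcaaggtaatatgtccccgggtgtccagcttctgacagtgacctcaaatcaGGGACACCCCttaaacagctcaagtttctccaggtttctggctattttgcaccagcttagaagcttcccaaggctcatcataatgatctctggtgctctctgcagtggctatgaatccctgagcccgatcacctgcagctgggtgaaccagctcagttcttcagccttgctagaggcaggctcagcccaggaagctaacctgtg
Cxcl1: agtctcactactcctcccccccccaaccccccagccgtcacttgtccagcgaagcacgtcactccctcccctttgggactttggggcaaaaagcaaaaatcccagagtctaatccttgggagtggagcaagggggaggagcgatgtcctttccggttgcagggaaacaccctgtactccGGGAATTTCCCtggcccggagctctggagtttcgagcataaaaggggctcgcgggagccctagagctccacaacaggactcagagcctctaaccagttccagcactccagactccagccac
Tnfrsf9: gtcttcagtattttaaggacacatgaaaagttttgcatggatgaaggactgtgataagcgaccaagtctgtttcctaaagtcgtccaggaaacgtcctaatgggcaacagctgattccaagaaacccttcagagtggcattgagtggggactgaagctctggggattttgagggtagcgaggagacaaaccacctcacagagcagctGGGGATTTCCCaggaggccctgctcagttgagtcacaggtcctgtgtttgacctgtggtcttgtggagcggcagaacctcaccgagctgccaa

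Epsti1 stood at 4496 and 4517 CPM in mcDC1 against 128 and 111 CPM in rcDC1 and at 2073 and 1905 CPM in mcDC2 against 129 and 122 CPM in rcDC2. In Epsti1 the match began 154 bases before the start, in Cxcl1 71 and in Tnfrsf9 43 bases before it. The window shown for a gene is the first of its windows that holds a match. That of Tnfrsf9 lies inside the gene, which spans 150920155 to 150946104 on chromosome 4, so its start is an internal one. Of the migratory types, mcDC2 held more Cxcl1 and mcDC1 more Epsti1.

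Other shared higher genes had varied roles. Ltc4s, the enzyme that makes leukotriene C4, stood at 162 and 160.4 CPM in mcDC1 against 0 and 1.17 CPM in rcDC1 and at 287 and 449.8 CPM in mcDC2 against 0 and 0 CPM in rcDC2, higher by at least 119-fold and 137-fold (46.5 to 668) and by at least 72.3-fold and at least 246-fold. Alox5ap, which encodes the protein that feeds arachidonic acid to the first enzyme of the same pathway, went the other way, at 40.3 and 26.3 CPM in mcDC1 against 932 and 859 CPM in rcDC1 and at 29.2 and 35.9 CPM in mcDC2 against 656 and 742 CPM in rcDC2. Of these 2 leukotriene genes, migratory cells of both lineages thus held more of the late one and less of the early one. Clu, a secreted chaperone, stood at 168 and 141 CPM in mcDC1 against 1.82 and 3.51 CPM in rcDC1 and at 1334 and 1109 CPM in mcDC2 against 0 and 0.609 CPM in rcDC2, mainly in mcDC2. Nudt17, a Nudix hydrolase, stood at 595 and 511 CPM in mcDC1 against 0.910 and 0.780 CPM in rcDC1 and at 319 and 447 CPM in mcDC2 against 1.32 and 1.83 CPM in rcDC2. Cacnb3, a calcium channel subunit, and Tmem123 belong here too, the latter at 3321 and 3124 CPM in mcDC1 against 46.9 and 44.0 CPM in rcDC1 and at 3091 and 3452 CPM in mcDC2 against 148 and 149 CPM in rcDC2. Of 16 measured survival genes 5 were shared higher, among them Cflar, Fas, Birc3 and Gadd45b, and none shared lower, beside 6.3% and 6.23% of all genes.

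Antigen presentation genes were called in both directions. Most MHC class II genes were lower in migratory cells, 10 of 13 measured members being shared lower beside 6.23% of all genes: Ciita, H2-Aa, H2-Ab1, H2-Eb1, Cd74, H2-DMa, H2-DMb1, H2-Oa, H2-Ob and March1. The class II gene H2-Eb2 and the thiol reductase Ifi30 were higher in mcDC1. H2-Ab1, a class II chain, stood at 1285 and 982 CPM in mcDC1 against 8703 and 9589 CPM in rcDC1, lower by 6.77-fold (6.46 to 7.11) and 9.76-fold (9.33 to 10.2), and at 1792 and 924 CPM in mcDC2 against 8973 and 8831 CPM in rcDC2, lower by 5.01-fold (4.65 to 5.39) and 9.55-fold (8.93 to 10.2). Class II RNA was still plentiful in migratory cells, with Cd74, the invariant chain, at 8915 and 7759.6 CPM in mcDC1 and 12589 and 8134 CPM in mcDC2 against 33781 and 32613 and 34041 and 34431 CPM in the residents. Ciita, the master activator of class II transcription, stood at 45.2 and 18.5 CPM in mcDC1 against 194 and 209 CPM in rcDC1 and at 49.4 and 30.8 CPM in mcDC2 against 323 and 277 CPM in rcDC2, lower by 4.30-fold and 11.3-fold and 6.54-fold and 9.0-fold. For all 3 genes the fold was larger in the RGX-104 library in both lineages. The list medians were -2.05 and -2.84 in cDC1 and -2.32 and -3.26 in cDC2. Of 21 measured class I genes, 6 were shared higher (B2m, H2-K1, Nlrc5, Psmb8, Psme1 and Psme2) and 2 shared lower, Pdia3 and Wdfy4, beside 6.3% and 6.23% of all genes. Wdfy4, which cDC1 need for cross-presentation, stood at 43.8 and 8.78 CPM in mcDC1 against 719 and 842 CPM in rcDC1 and at 13.5 and 3.08 CPM in mcDC2 against 195 and 136 CPM in rcDC2. In control mcDC1 1 cell gave 76.2% of the Wdfy4 UMIs.

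Uptake receptors of cDC2 were lower in migratory cells, 11 of 13 measured members being called lower and 1 higher, beside 11.6% and 7.45% of all genes measured in cDC2. In cDC1 5 of 8 measured members were lower and 3 higher, beside 13.6% and 15.6% of all genes. Ifngr1, a chain of the interferon gamma receptor, stood at 44.5 and 25.8 CPM in mcDC1 against 368 and 318 CPM in rcDC1 and at 18 and 35.9 CPM in mcDC2 against 401 and 421 CPM in rcDC2. Irf7, which amplifies type I interferon, was lower by 8.5-fold and 11.5-fold in cDC1 and 7.86-fold (2.50 to 39.7) and 14.0-fold in cDC2. Kit, Bcl11a and Itgax were shared lower among 18 general dendritic cell genes, and Id2 and Csf2rb2 shared higher, beside 6.23% and 6.3% of all genes. Id2, a repressor that cDC1 need for their development, stood at 1224 and 1443 CPM in mcDC1 against 597 and 655 CPM in rcDC1 and at 1419.5 and 1879 CPM in mcDC2 against 115 and 104 CPM in rcDC2. The dendritic cell genes Flt3 and Zbtb46 were called in neither lineage; Zbtb46 stood at 89.0 and 84.8 CPM in mcDC1 against 72.3 and 56.9 CPM in rcDC1 and at 38.2 and 60.6 CPM in mcDC2 against 63.6 and 60.9 CPM in rcDC2.

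Of the proliferation, sugar metabolism and immediate early genes, those called in both lineages were lower in migratory cells apart from 1 gene in each list, beside 6.23% lower and 6.3% higher of all genes. Of 17 proliferation genes, 5 were shared lower (Mcm2, Mcm4, Mcm5, Mcm6 and Mcm7) and Tubb5 shared higher, a call that Tubb5 lost without ribosomal protein genes in the totals. The medians of this list were -1.13 and -1.65 in cDC1, but in cDC2 0.53 (control) and -0.51 (RGX-104). Cells with both of the authors' cycle scores below 0 made up 88.0% and 87.4% of mcDC1, 66.7% and 73.2% of rcDC1, 87.7% and 85.6% of mcDC2 and 83.9% and 83.8% of rcDC2. Among these cells, Mcm2 and Mcm7 were higher in RGX-104 mcDC1 than rcDC1, with log2 ratios of 0.19 and 1.44. The scores are themselves made from RNA of cycle genes, so cells chosen by them cannot show whether the lower level in cDC1 holds. Of 14 glycolysis genes, Slc2a1, Hk2, Pfkp and Ldha were shared lower and Pfkfb3 shared higher. Of 25 genes of oxidative phosphorylation, none was called in both lineages and 1 in cDC1, with medians from -0.21 to -0.08. Among 19 immediate early genes, which also respond to tissue digestion, Btg2, Egr2, Fosb and Nr4a1 were shared lower and Klf6 shared higher.

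**Figure D3:**
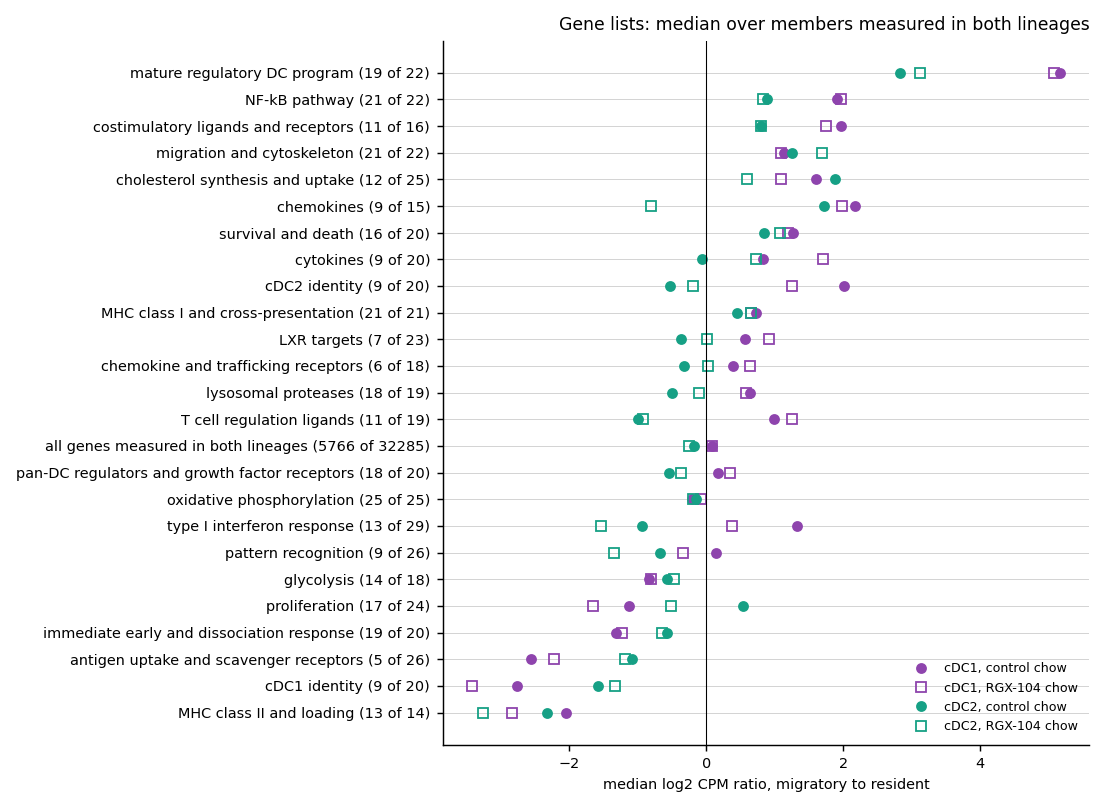
Median log2 ratio of migratory to resident cells over the members of 24 gene lists measured in both lineages, and over all 5766 such genes, for cDC1 and cDC2 in each library. The mature regulatory list lies highest in all 4 comparisons, with medians of 2.83 to 5.16, and MHC class II lies at -2.05 to -3.26.

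Some genes set the migratory state apart in cDC1 only. Of the 178 genes of this kind, 143 (2.48% of genes measured in both) were higher in mcDC1 and 35 (0.607%) lower. In most of the named higher genes, rcDC1 was the one type of the 4 with hardly any transcript. Irf4, the transcription factor of cDC2, stood at 59.1 and 79.5 CPM in mcDC1 against 1.82 and 2.34 CPM in rcDC1, higher by 32.5-fold (12.2 to 122) and 34.0-fold (15.3 to 93.9), whereas it stood at 67.4 and 59.6 CPM in mcDC2 against 64.9 and 68.3 CPM in rcDC2. The Ets factor Spib stood at 106 and 85.8 CPM in mcDC1 against 2.73 and 2.34 CPM in rcDC1 and at 38.2 and 37.0 CPM in mcDC2 against 38.4 and 48.8 CPM in rcDC2, and the glycogen phosphorylase Pygl at 143 and 81.9 CPM in mcDC1 against 0.455 and 0.390 CPM in rcDC1 and at 42.7 and 26.7 CPM in mcDC2 against 42.4 and 30.5 CPM in rcDC2. mcDC1 thus held these genes at about the level of both cDC2 states or above it. S100a4, a calcium-binding protein of motile cells, stood at 1171 and 922 CPM in mcDC1 against 70.5 and 51.1 CPM in rcDC1, higher by 16.6-fold and 18.1-fold, and at 1779 and 1865 CPM in mcDC2 against 2020.4 and 2004 CPM in rcDC2. Gpr183, Icosl, Stat3, Bcl3, Ctsh and Ctsz were also higher in cDC1 only. Among the lower genes were the fatty acid receptor Ffar4, at 2.09 and 5.85 CPM in mcDC1 against 103 and 103 CPM in rcDC1, and the immediate early factor Egr1, at 16.7 and 5.36 CPM in mcDC1 against 144 and 90.0 CPM in rcDC1 and at 317 and 184 CPM in mcDC2 against 371 and 179 CPM in rcDC2. In control cells, 1 cell gave 66.7% of the Egr1 UMIs of mcDC1 and 1 cell 51.0% of the S100a4 UMIs of rcDC1.

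In cDC2 only, 8 genes (0.139%) were higher and 33 (0.572%) lower in migratory cells. Vim, the intermediate filament vimentin, stood at 3526 and 4306 CPM in mcDC2 against 1486 and 1335 CPM in rcDC2, higher by 2.37-fold (2.20 to 2.56) and 3.23-fold (3.06 to 3.40), and at 2144 and 2254 CPM in mcDC1 against 2053 and 1843 CPM in rcDC1. Galnt7, an enzyme that starts O-glycans, stood at 53.9 and 68.8 CPM in mcDC2 against 10.6 and 9.75 CPM in rcDC2, higher by 5.09-fold (2.21 to 13.1) and 7.06-fold (4.05 to 13.0), and at 75.1 and 80.4 CPM in mcDC1 against 85.5 and 88.9 CPM in rcDC1. Ltb, the lymphotoxin chain through which immune cells talk to lymph node stroma, was lower, at 49.4 and 26.7 CPM in mcDC2 against 318 and 249.9 CPM in rcDC2, lower by 6.43-fold (4.15 to 10.5) and 9.36-fold (6.29 to 14.5), and at 22.3 and 33.2 CPM in mcDC1 against 26.8 and 26.1 CPM in rcDC1. The rcDC2 were the one type with a high level of Ltb, which T and B cells also express, and T cell markers summed to 147 and 156 CPM in rcDC2 against 58.4 and 33.9 CPM in mcDC2. Without cells with 2 or more T or B cell markers, the log2 ratio of Ltb in control cDC2 was -2.79, but the gene no longer met the rule for cDC2 only. The part of T and B cell RNA was not tested further. Limd2 and Ifitm2 followed the same pattern, the latter at 229 and 264 CPM in mcDC2 against 706 and 846 CPM in rcDC2 and at 162 and 162 CPM in mcDC1 against 156 and 164 CPM in rcDC1. With cDC1 sums thinned to the cDC2 totals, 109 genes were higher and 26 lower in cDC1 only, and 7 and 27 in cDC2 only. The cDC1-only and cDC2-only counts were 70 higher and 76 lower, and 13 and 16, under TMM, and 92 and 50, and 12 and 30, without ribosomal protein genes; 95 of 178 and 20 of 41 genes kept their class under TMM. Of the genes with values here, Ffar4 lost it.

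**Figure D4:**
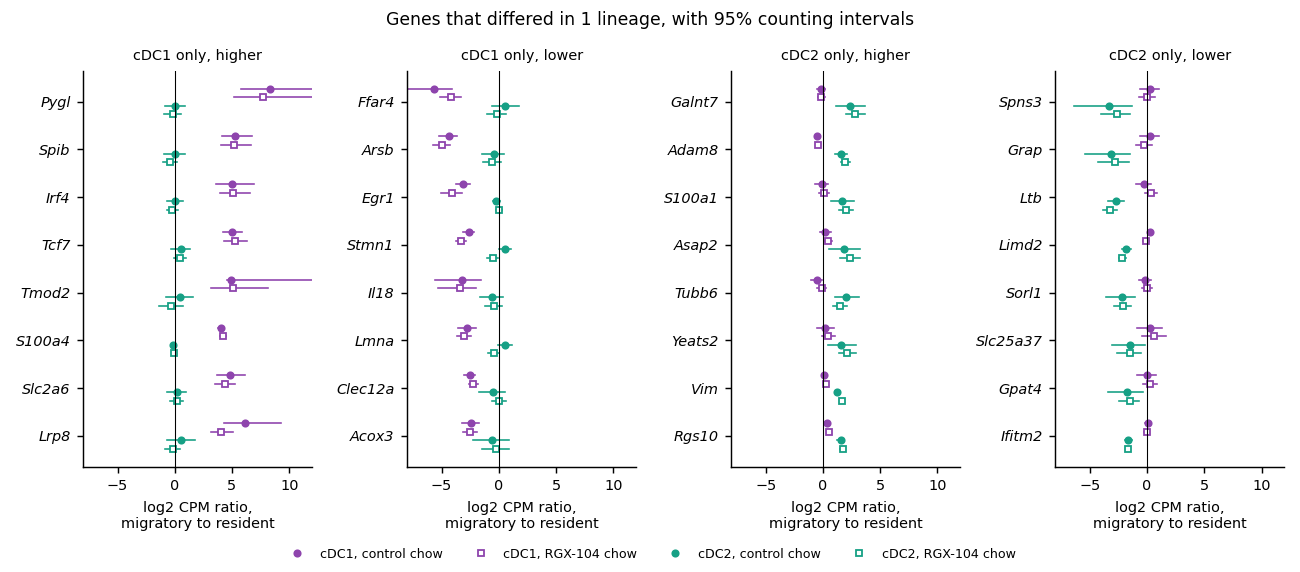
Log2 ratio of migratory to resident cells, with 95% intervals of counting error, for 32 named genes called in 1 lineage only, in cDC1 and cDC2 of each library. The called lineage lies at least 1 log2 unit from 0 and the other within 1.5-fold of no difference. Some of these genes lost their class under another scaling, as named in the text.

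Opposite calls were rare, with 16 genes (0.277%) higher in mcDC1 and lower in mcDC2 and 3 (0.052%) the reverse. Isg15, an interferon-induced ubiquitin-like protein, stood at 476 and 241 CPM in mcDC1 against 35.5 and 51.1 CPM in rcDC1, higher by 13.4-fold (10.6 to 17.2) and 4.72-fold (3.88 to 5.76), and at 47.2 and 44.2 CPM in mcDC2 against 148 and 196 CPM in rcDC2, lower by 3.15-fold (1.96 to 5.28) and 4.43-fold (3.22 to 6.24). In the control library it was seen in 83 of 166 mcDC1 and 27 of 135 rcDC1, and in 9 of 57 mcDC2 and 31 of 87 rcDC2. Of 13 measured type I interferon genes, 5 were higher in mcDC1 (Isg15, Oasl2, Rsad2, Usp18 and Ifi27l2a) and 2 lower, beside 16.6% and 12.2% of all genes measured in both lineages. None was higher in mcDC2 and 6 were lower, among them Irf7, Trim30a, Isg15, Oasl2 and Parp14, beside 7.44% and 10.7% of all genes. Sirpa, the cDC2 marker that binds CD47, stood at 20.2 and 26.8 CPM in mcDC1 against 5.0 and 11.3 CPM in rcDC1 and at 115 and 94.5 CPM in mcDC2 against 369.6 and 406 CPM in rcDC2, so the gap between the lineages was smaller in migratory cells. Tnf ran the other way, at 7.65 and 12.2 CPM in mcDC1 against 18.2 and 32.0 CPM in rcDC1 and at 126 and 76.0 CPM in mcDC2 against 18.5 and 8.53 CPM in rcDC2. Areg, Oasl2 and Atp1b1 rest on few UMIs, and 1 cell gave 59.5% to 84.0% of the Areg UMIs in mcDC1. Birc5, at 80.9 and 24.6 CPM in mcDC2 against 1.32 and 9.75 CPM in rcDC2, came from 2 mcDC2 in each library.

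Lineage genes differed less between migratory cDC1 and cDC2 than between resident ones in the examples that follow. Irf8 stood at 521 and 654 CPM in mcDC1 against 1188 and 1087 CPM in rcDC1 and at 216 and 328 CPM in mcDC2 against 46.4 and 41.4 CPM in rcDC2, higher in mcDC2 by 4.65-fold (3.13 to 7.06) and 7.91-fold (6.07 to 10.4). In cDC1 the resident to migratory ratio was 2.28-fold (2.10 to 2.48) and 1.66-fold (1.56 to 1.77), which passed 2-fold in the control library only. Batf3 stood at 399 and 384 CPM in mcDC1 against 213 and 179 CPM in rcDC1 and at 341 and 293 CPM in mcDC2 against 103 and 97.5 CPM in rcDC2. In RGX-104 cells the Irf8 gap between lineages was 1087 against 41.4 CPM in residents and 654 against 328 CPM in migratory cells. Of 20 cDC1 identity genes measured in cDC1, 17 were lower in mcDC1 and 1 higher, beside 13.6% and 15.6% of all genes. Of 17 cDC2 identity genes measured in cDC2, 11 were lower in mcDC2 and 1 higher, beside 11.6% and 7.45%. In the other lineage the lists went both ways. Of 9 cDC1 identity genes measured in cDC2, 5 were lower in mcDC2 and 3 higher, beside 11.6% and 7.45%. Of 9 cDC2 identity genes measured in cDC1, 2 were lower in mcDC1 and 5 higher, beside 13.6% and 15.6%. The examples do not stand for the whole lists. Il12b, a subunit of the T helper cytokine IL-12, stood at 172 and 457 CPM in mcDC1 against 96.4 and 88.5 CPM in rcDC1 and at 150.5 and 98.6 CPM in mcDC2 against 1.32 and 0 CPM in rcDC2, so that migratory cells held more in both lineages. In control rcDC1 1 cell gave 42.9% of the Il12b UMIs, and without the cell with most UMIs in each type the log2 ratio of control cDC1 was 1.38, past 2-fold as in RGX-104. In control mcDC2 Il12b was seen in 8 of 57 cells, and 1 cell gave 43.3% of its UMIs.

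Cells named mLC, which took no part in these calls, went the same way for most of the shared genes measured in this comparison. They were set against pre-DC2 and against mono, 2 types named in the same table. Of 348 shared higher genes measured there, 283 (81.3%) were at least 2-fold higher in mLC than in pre-DC2 in both libraries, against 11.3% of all genes, and of 349, 276 (79.1%) were higher than in mono, against 13.0%. Of the 359 shared lower genes, 232 were measured against pre-DC2, and 190 of these (81.9%) were lower in mLC, against 13.7%. Against mono 287 were measured and 218 (76.0%) were lower, against 14.9%. Measured means at least 20 UMIs over mLC and the other type in each library. A gene low in mLC therefore passes mainly where the other type is high. For lower genes, also those of 1 lineage below, the share of all genes is thus no like background. The pre-DC2 were only 24 and 21 cells. Of 135 genes higher in cDC1 only, 26 (19.3%) were higher in mLC than in pre-DC2, and of 137, 28 (20.4%) than in mono. Of genes lower in cDC1 only, 9 of 29 (31.0%) were lower in mLC than in pre-DC2 and 11 of 31 (35.5%) than in mono, and of genes lower in cDC2 only 15 of 30 (50%) and 17 of 32 (53.1%). Of the 8 genes higher in cDC2 only, 4 of 7 measured ones were higher in mLC than in pre-DC2 and 3 of 8 than in mono.

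The migratory share of cells differed between chows by less than counting error in both lineages. Migratory cells made up 55.1% of cDC1 (49.3% to 60.9%) in control and 60.8% (55.5% to 65.9%) in RGX-104, or 1.23 and 1.55 per resident cell, an odds ratio of 1.26 (0.912 to 1.74). In cDC2 they made up 39.6% (31.5% to 48.1%) and 38.4% (32.6% to 44.5%), or 0.655 and 0.623 per resident cell, an odds ratio of 0.951 (0.616 to 1.47). Both intervals include 1, and the ratio of the 2 odds ratios was 1.33 (0.790 to 2.23), so a difference was not detectable at this depth. Counting mLC as migratory cDC2 gave 70.0% in control and 58.8% in RGX-104, an odds ratio of 0.611 (0.437 to 0.851). The shares are of cells that passed the sort, the part of which was not tested.

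**Figure D5:**
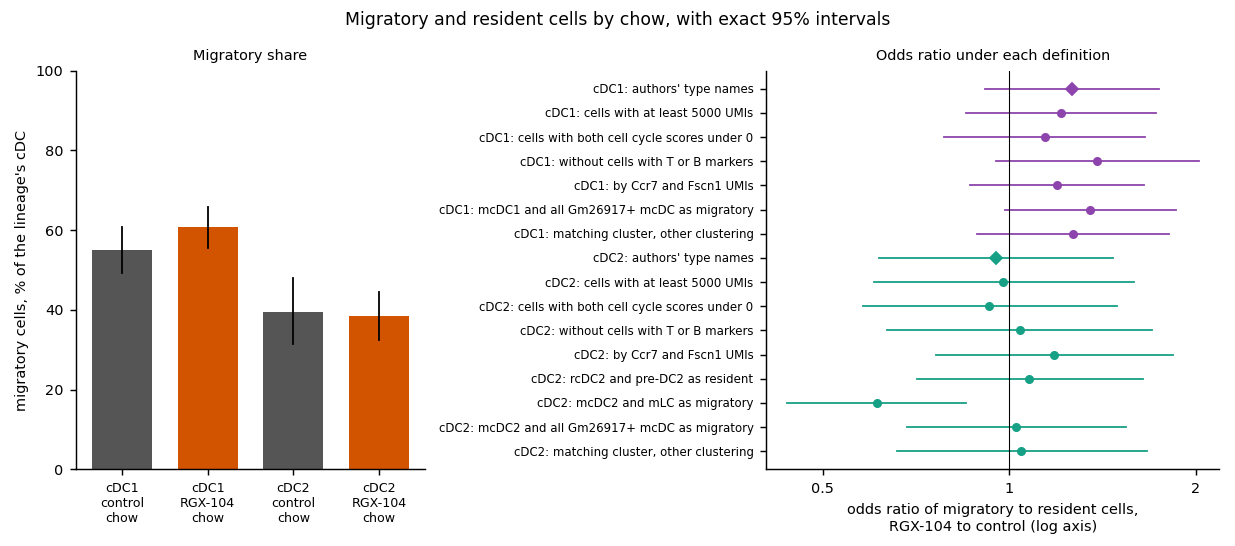
Left, percent of migratory cells among cDC1 and cDC2 in each library, bars from 0 with exact 95% intervals. Right, odds ratio of migratory to resident cells in RGX-104 over control under each way of counting the cells, on a log axis, where only the count with mLC as migratory cDC2 excludes 1.

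The contrast itself differed at least 2-fold between the libraries for few genes. Those that did so in both lineages were of mixed kinds, among them the cell cycle genes Mki67, Top2a, Tpx2 and Ube2c and the sterol genes Idi1 and Fdps. In cDC1 the ratio was at least 2-fold larger in RGX-104 for 171 of 8615 genes (1.98%) and smaller for 251 (2.91%), and in cDC2 for 114 of 5865 (1.94%) and 275 (4.69%). For genes lower in migratory cells, such as the shared lower Cfp and Havcr2, a smaller ratio is a wider gap. In both lineages 3 genes (0.052%) were larger and 24 (0.416%) smaller. Of these, Idi1, an isopentenyl diphosphate isomerase of cholesterol synthesis, stood at 235 and 313 CPM in mcDC1 against 10.5 and 45.2 CPM in rcDC1 and at 184 and 269 CPM in mcDC2 against 9.27 and 54.8 CPM in rcDC2, with folds of 22.5-fold (14.7 to 35.9) and 6.91-fold (5.66 to 8.5) in cDC1 and 19.9-fold (9.22 to 50.9) and 4.91-fold (3.85 to 6.30) in cDC2. The Idi1 level of resident cells was higher in the RGX-104 library in both lineages. H2-DMb2, a class II loading gene, was lower in RGX-104 than in control migratory cells and so had a smaller ratio in both lineages, at 117 and 43.4 CPM in mcDC1 against 114 and 125 CPM in rcDC1 and at 137 and 37.0 CPM in mcDC2 against 653 and 519 CPM in rcDC2. Abcg1, a cholesterol exporter and a target of LXR, stood at 229 and 587 CPM in mcDC1 against 45.5 and 133 CPM in rcDC1 and at 218 and 548 CPM in mcDC2 against 43.7 and 181 CPM in rcDC2, higher in migratory cells by 5.03-fold and 4.4-fold and 4.98-fold and 3.03-fold. Among 12 cholesterol genes, Idi1 and Fdft1 were shared higher, with list medians of 1.60 and 1.08 in cDC1 and 1.88 and 0.60 in cDC2. Of 7 LXR targets Abcg1 was the one shared higher gene. Of all genes, 6.3% were shared higher.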

How the data were processed

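The matrices hold counts of UMIs for 32285 genes per barcode, produced by the authors in Cell Ranger, whose version the file headers give as 5.0.0. The genome mm10 and Seurat (5.0.3) are named in the submitters' processing notes. The annotation tables that the authors deposited give each cell a type, its UMI count and gene count, its mitochondrial UMIs in percent and unitless cell cycle scores. Each of 5825 annotated cells (2881 control, 2944 RGX-104) matched 1 barcode by its UMI count, gene count and mitochondrial percent. The authors' doublet column names every one a singlet, and no cell was removed here. The deposited contig tables give counts of UMIs per T cell receptor contig.

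UMI counts were summed per library and type without other normalization than the summed total. Ratios carry exact conditional binomial 95% intervals, shares Clopper-Pearson intervals, and odds ratios exact conditional intervals. Where 1 side had 0 UMIs, it was set to a floor of 3 counts and the fold given as a minimum. A gene was given to 1 lineage only where it was called there, lay within 1.5-fold of equality in the other lineage in both libraries, and the ratio of the lineages' ratios was at least 2 with an interval excluding 1. Opposite calls needed a call in each lineage. Named genes are the 12 shared higher and 12 shared lower genes with the most extreme interval bound (taking the weakest of the 4 comparisons), 8 per lineage and direction, 6 opposite genes, up to 4 per list and a set of known markers; other genes given with values or by name were chosen after their values were seen. The members, the 24 pathway lists, the 8 lists of other cell types and the rule for named genes were chosen with earlier results of these data known. The mLC cells were to be set against resident cells, but were set against pre-DC2 and mono because the resident cells already enter the calls. A type named Gm26917+ mcDC, which states no lineage, was not used in the main values. Scripts were tested on simulated data. Alternatives were other UMI minimums, folds, scalings (TMM factors from edgeR 4.0.16 in R 4.3.3), cell filters and cell definitions. Positions and promoters come from RefSeq's GRCm38.p6, the assembly behind mm10. Analyses used Python 3.11.15, numpy 2.4.6, scipy 1.17.1 and pandas 2.3.3. Some genes are not reported here.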

Additional observations from a re-analysis of the deposited data

Results flagged for a closer look

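Of the genes called in opposite directions, 7 are given by the ratio of the cDC1 to the cDC2 contrast, taken as the smaller of the 2 libraries. They are the 6 with the largest such ratio and Sirpa, which was named as a known marker and not for its ratio. Areg in control and Atp1b1 in RGX-104, each with 0 UMIs in mcDC2, are the larger ones. The difference itself carries a counting interval but was not tested between animals. The cDC1 contrast exceeded the cDC2 contrast 20.9-fold for Isg15, 10.2-fold for Sirpa, 27.8-fold for Atp1b1 and 33.4-fold for Areg. For Oasl2, with 0 UMIs in mcDC2 of both libraries, it was at least 32.6-fold. The cDC2 contrast exceeded the cDC1 contrast 16.1-fold for Tnf and 22.9-fold for Birc5. Isg15 was seen in at least 9 cells of each cDC type and library, though 1 cell gave 42.9% of its UMIs in control mcDC2. Sirpa was seen in 3 of 135 control and 8 of 138 RGX-104 rcDC1, with 63.6% and 37.9% of the UMIs from 1 cell, and in more cells of the other types. Areg and Birc5 rested on few cells.

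A signal outside the gene counts appeared in resident cDC1. A productive T cell receptor contig was assigned to 4 of 135 control rcDC1 (2.96%, 0.813% to 7.41%) and to 5 of 138 RGX-104 rcDC1 (3.62%, 1.19% to 8.25%). Among the other cDCs it was assigned to 1 of 166 control mcDC1 and to none of the RGX-104 mcDC1, mcDC2 or rcDC2 of either library. Outside the cDCs, 1 of 27 control macrophages (3.70%, 0.0937% to 19.0%) held one, but none of 52 RGX-104 macrophages did. None was assigned to cells named mLC, mono, pDC, pre-DC2 or Gm26917+ mcDC in either library. The macrophage value rests on 1 cell, so it cannot show whether another type reaches a like share. The rcDC1 also had the highest median depth of the 4 cDC types, at 16248 and 19292 UMIs, and the part of depth was not tested. Among annotated T cells the share was 87.4% and 83.4%.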

How the results depend on the processing

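No paired analysis was possible because the labels carry no replicate numbers and there is 1 library per chow. Shared higher genes numbered 363 as reported, 225 at 3-fold and 161 with cells thinned to 2000 UMIs. Shared lower genes numbered 359, and 207 with a minimum of 50 UMIs, 559 at 1.5-fold, 194 at 3-fold and 96 with thinned cells. Genes of cDC1 only numbered 178, and 117 with a minimum of 50 UMIs, 344 at 1.5-fold, 63 at 3-fold and 56 with thinned cells. Genes of cDC2 only numbered 41, and 25, 109, 11 and 22 in the same order, and 63 without the cell holding most UMIs of each gene. Fewer genes were measured with the higher minimum and with thinned cells. In the other settings the counts stayed within 1.5 times: 245 to 512, 301 to 435, 133 to 196 and 29 to 61. 2 of these settings, cDC1 sums thinned to the cDC2 totals and the matching cells of the other deposited clustering, were chosen after seeing the data. Membership moved more than the counts in the one-lineage classes: with TMM 95 of 178 and 20 of 41 genes kept their class, and 49 of 138 named genes kept theirs in all 13 settings.

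The odds ratio stayed at 1.14 to 1.39 in cDC1 and 0.928 to 1.18 in cDC2 across cell filters and definitions, except 0.611 with mLC counted as migratory cDC2. Among values of single genes, 2343 of 2828 moved by less than their interval, 481 moved further and 4 turned direction. With cells thinned to 2000 UMIs, 144 of 277 stayed within the interval and 133 moved further. The values are those of the library with the smaller contrast, and values on few UMIs in a setting were left out. Turns were counted for called genes only. With cells below 0 in both cycle scores the log2 ratio in cDC1 was 0.19 for Mcm2 and 1.44 for Mcm7 in RGX-104 and 0.16 for Stmn1 in control. That setting chooses cells by cycle RNA, so it cannot decide whether cycle genes differ. With the other clustering the log2 ratio of Birc5 in RGX-104 cDC2 was -1.39, and the cause was not tested. Depth limits cDC2 most, above all the 57 control mcDC2, and no value separates chow from library.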
